A study of Mus musculus with 36 samples.

Results

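The interaction of genotype with RANK-L culture was measured in mouse macrophage-lineage cells as the RANK-L response of Mir324-null cells minus the RANK-L response of wild-type (WT) cells, gene by gene. Of the 36 RNA-seq libraries of the series, the 24 titled BMM or OC entered the contrast, 6 in each of 4 groups, and the 12 osteoblast libraries were not used. All 4 groups started as marrow flushed from long bones of mice aged 20 weeks and grown for 3 days in M-CSF at 100 ng/mL. Bone marrow macrophages (BMM) were then kept for 5 days in M-CSF at 30 ng/mL, and osteoclast cultures (OC) for 5 days in M-CSF at 30 ng/mL with RANK-L at 50 ng/mL. Each of the 2 culture conditions was made from wild-type control mice and from Mir324-null mice that lack the microRNA gene Mir324; the labels name no Cre driver, strain background or other allele. M-CSF was therefore present in every group, and RANK-L in the OC groups alone. The labels do not say whether a BMM and an OC library came from the same mouse or whether animals were pooled, so the p-values measure the spread between these samples, which may be technical. miR-324 was not analysed here, and no check of genotype on the deleted gene could be made.

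M-CSF keeps macrophages alive, and RANK-L, a ligand of the TNF family, turns them into osteoclasts, the cells that resorb bone. RANK-L binds its receptor RANK, recruits TRAF6 and, with signals from ITAM adaptors such as DAP12 (Tyrobp) and FcRγ (Fcer1g), switches on NF-kB, AP-1 and then NFATc1, the transcription factor that drives cathepsin K, TRAP and the fusion proteins. Repressors such as IRF8 hold macrophages out of this fate and are turned down as osteoclasts form. A microRNA lowers the messages that pair with its seed, bases 2 to 8 of the mature strand.

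The 2 mature strands made from the deleted gene are shown because they define the genotype; both come from a hairpin of 89 bases at chr11:70012043-70012131 on the plus strand (RefSeq, GRCm38.p6), with the seed in capitals, and their seeds differ.
mmu-miR-324-5p: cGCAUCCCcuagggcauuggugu
mmu-miR-324-3p: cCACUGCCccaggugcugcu

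The cultures were first set against markers of their labelled type. Osteoclast markers (7 genes) summed to 27550 to 30040 CPM (counts scaled to the same library size) in WT OC, 26.6 to 36.2 CPM in WT BMM, 206 to 276 CPM in null BMM and 314 to 678 CPM in null OC, and Calcr, the calcitonin receptor, was at 0 counts in every library outside WT OC. The libraries labelled null osteoclasts thus went against that label on these markers, and the name OC is used for them only as the culture condition. Macrophage markers (5 genes) summed to 5969 to 6571 CPM in WT BMM, 10310 to 12070 CPM in null BMM, 4350 to 4806 CPM in WT OC and 8963 to 12200 CPM in null OC. The higher sums in null cells came from Adgre1, with a mean of 7425 CPM in null BMM against 1873 CPM in WT BMM, whereas Cd68 (1778 against 2564 CPM), Mertk (44.98 against 101.5 CPM) and Fcgr1 (22.04 against 57.9 CPM) were lower in null BMM. In these bulk samples, fewer cells of a type and less RNA per cell cannot be told apart.

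Libraries held 14118972 to 26347581 estimated counts, and 12661 of 30205 genes had enough counts to be tested. Within the null BMM group, replicates 2, 3 and 4 lay on one side and replicates 1, 5 and 6 on the other along the main axis of spread, which held 37.1% of the variance of that group. Within null OC, replicate 6 stood apart from the other 5 on an axis holding 39.1%. These libraries were singled out after their values were seen. The counts of calls, classes and gene lists were also made without them, and the promoter motif counts were not. The interaction was called (adjusted p under 0.05) in 6501 genes, in 5922 without null BMM replicates 2 to 4, and in 6810 without replicate 6 of both null groups. The null response was called in 1628 genes with all libraries, in 87 without null BMM replicates 2 to 4 and in 2436 without the replicates numbered 6, so the number of null calls moved far more with those 3 macrophage libraries than the number of interaction calls; 3 libraries in place of 6 also give the test less power.

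RANK-L culture moved WT cells much further than null cells. In WT, 7662 of 12661 genes (60.5%) were called, 3849 higher in OC (30.4%) and 3813 lower (30.1%), and 2749 of them (21.7%) changed by at least log2 1. In null cells 1628 genes (12.9%) were called, 859 higher (6.78%) and 769 lower (6.07%), and 85 (0.671%) changed by at least log2 1. The interaction was called in 6501 genes (51.3%), positive in 3197 (25.3%) and negative in 3304 (26.1%); a negative value is a response that was lower on the log2 scale in null cells than in WT. Null OC differed from WT OC in 8188 genes (64.7%), 4150 higher (32.8%) and 4038 lower (31.9%), and in 2939 (23.2%) by at least log2 1. Null BMM already differed from WT BMM in 6575 genes (51.9%), 3430 higher (27.1%) and 3145 lower (24.8%). Among the called genes the median size of the response was log2 0.73 in WT and log2 0.39 in null cells.

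**Figure D1:**
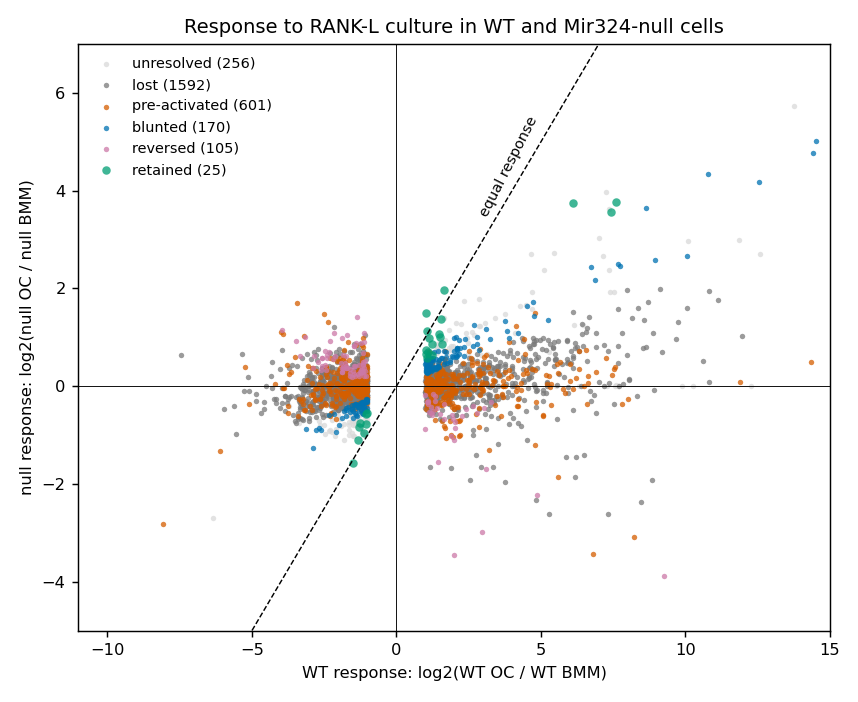
Each point is 1 of the 2749 genes whose WT response was called and at least log2 1; the x axis is the WT response and the y axis the null response, both as log2 of OC over BMM, and colours mark the response classes with their gene counts. Most points lie along the horizontal axis, far from the dashed line of equal responses.

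The 2749 genes with a WT response of at least log2 1, 1348 rising and 1401 falling, were sorted by what null cells did. Across them the null response had a median of 3.71% of the WT log2 response, with quartiles of -8.35% and 16.0%. A lost response, in which the interaction was called against the WT direction and less than 25% of the WT log2 response was left, was found for 1592 genes (57.9%), 752 rising and 840 falling. A pre-activated response was found for 601 genes (21.9%), 305 rising and 296 falling. This class name says only that null BMM differed from WT BMM in the direction in which RANK-L moves WT cells. The difference was at least 50% of the WT log2 response. BMM were parallel cultures without RANK-L, not an earlier time point of the OC cultures. For 170 genes (6.18%) the response was blunted, with the interaction called and 25% or more of the WT response left. In 105 genes (3.82%) null cells were called in the opposite direction. Only 25 genes (0.909%) were retained, meaning that null cells were called in the WT direction and the interaction was not called, and for 256 genes (9.31%) neither was called, so that these stayed unresolved. No gene had a response called larger in null than in WT cells in the WT direction by edgeR's test; the count was 0 also at an unadjusted p under 0.05 and by DESeq2 and limma-voom, and 0 (2 unadjusted) by limma on TPM. Without null BMM replicates 2 to 4 the counts were 1686 lost, 619 pre-activated, 120 blunted, 8 reversed, 3 retained and 435 unresolved.

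The interaction was part of the rule that makes the lost, pre-activated and blunted classes, and it was called in 2468 (89.8%) of the 2749 genes against 51.3% of all genes tested, so the share in these classes is a description. The WT response, the basal difference and the interaction all use the same WT BMM libraries. They are therefore given side by side and are not independent of each other. Members close to a threshold do not fall into separate groups: the 5 lost genes nearest the 25% limit kept 24.68% to 24.99% of the WT response and the 5 nearest blunted genes 25.1% to 25.3%. On the pre-activation limit the nearest genes had 49.7% to 50.0% below it and 50.1% to 50.3% above it. Genes just outside the set had WT responses of log2 0.9986 to 0.9996, and those just inside log2 1.000 to 1.001.

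Each library was also placed on the line from the mean of WT BMM (0) to the mean of WT OC (1) over the 2749 genes. Null BMM libraries lay at 0.215 ± 0.0128 (SD, n = 6; 0.2003 to 0.238) and null OC libraries at 0.268 ± 0.0220 (SD, n = 6; 0.2497 to 0.310). The 2 null groups did not overlap on this line, and the distance between them was 0.0529 of the distance between the WT groups. Null OC replicate 6 was the highest, at 0.310. For genes rising in WT the null groups lay at 0.211 and 0.268, and for falling genes at 0.224 and 0.266, where null OC libraries spread from 0.202 to 0.349. The null groups overlapped in both subsets, among rising genes because null OC replicate 3 (0.236) lay below null BMM replicate 1 (0.2435). The WT groups that define the line also define the gene set, so the places of the WT libraries are fixed by construction.

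**Figure D2:**
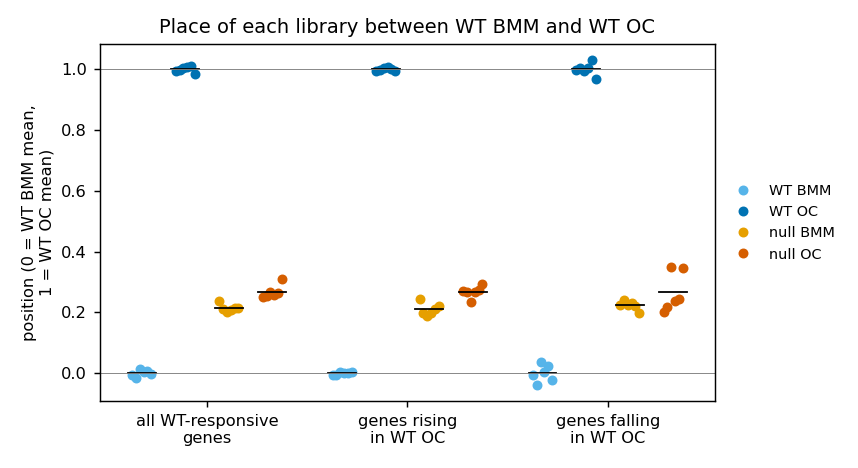
The y axis is the place of each library between the mean of WT BMM at 0 and the mean of WT OC at 1, for all 2749 WT-responsive genes and for those rising and falling; points are libraries and bars are means of 6. Null BMM and null OC libraries all lie between 0.190 and 0.349, next to each other and far from WT OC.

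Upstream signalling showed no common direction. Of 18 genes of RANK and ITAM signalling, the interaction was called positive in 6 and negative in 5, against 25.3% and 26.1% of all genes, and the median interaction was log2 0.041, which became -0.11 with scaling by library totals. Tnfrsf11a, which encodes the receptor RANK, gave (lowest, median and highest of 6 libraries) 36.9, 51.6 and 59.3 CPM in WT BMM, 126, 130.5 and 147 CPM in WT OC, with null BMM at 27.0, 30.8 and 34.5 CPM and null OC at 26.5, 31.7 and 34.3 CPM. WT OC libraries all lay above the other 3 groups, while the 2 null groups overlapped. Its WT response was log2 1.42 ± 0.088 (SE), its null response 0.024 ± 0.090, and its interaction -1.40 ± 0.13 (adjusted p = 3.0e-10). Traf6, the adaptor recruited by RANK, had means of 49.3 CPM in WT BMM and 98.5 CPM in WT OC, against 17.1 and 18.6 CPM in null BMM and null OC, with an interaction of log2 -0.87 ± 0.18 (adjusted p = 0.00021). Src, the kinase needed for the ruffled border, rose in WT from 0.909 to 117 CPM and stood at 8.40 and 8.85 CPM in null BMM and null OC. Oscar, an ITAM-coupled collagen receptor, rose from at most 3 counts in any WT BMM library to 332 CPM in WT OC, at least 2114-fold, and had a mean of 1.44 CPM in null OC; its interaction (log2 -9.66 ± 2.02, adjusted p = 0.00025) did not pass the threshold without null BMM replicate 1 (adjusted p = 0.076). In the other direction, Trem2, another ITAM-coupled receptor, fell in WT from 1001 to 227 CPM and stood at 899 and 769 CPM in null cells (interaction log2 1.92 ± 0.13, adjusted p = 6.7e-13). Csf1r, the M-CSF receptor, had an interaction of log2 0.32 ± 0.11 (adjusted p = 0.015), with group means from 1320 CPM in WT OC to 1818 CPM in null BMM, which did not pass with scaling by library totals (0.17, adjusted p = 0.19) or on TPM (0.25, adjusted p = 0.079). The other 7, among them the kinases Syk, Btk and Tec, had interactions that did not pass the threshold, from log2 -0.29 for Cblb to 0.16 for Tyrobp. Without null BMM replicates 2 to 4 both of these passed (log2 -0.54, adjusted p = 0.032, and 0.44, adjusted p = 0.0080), and Btk passed with scaling by library totals (-0.28, adjusted p = 0.019).

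Among 22 osteoclast transcription factors the interaction was negative in 15 and positive in 6, against 26.1% and 25.3% of all genes. Nfatc1 gave 91.5, 100.3 and 119 CPM in WT BMM, 548, 831 and 888 CPM in WT OC, with null BMM at 45.8, 57.0 and 75.6 CPM and null OC at 53.3, 78.1 and 90.8 CPM. All WT OC libraries were above all others, and the null groups overlapped. The WT response of Nfatc1 was log2 2.91 ± 0.15 and the null response 0.39 ± 0.14 (adjusted p = 0.063), for an interaction of log2 -2.52 ± 0.20 (adjusted p = 3.9e-11); the null response was thus below 25% of that in WT, which makes the response lost. Fos, the AP-1 subunit that acts upstream of NFATc1, rose in WT from 52.8 to 235 CPM and was 97.8 and 98.6 CPM in null cells. Fosl2, Prdm1, Ppargc1b, Jdp2 and Bhlhe40 were lost as well, with interactions from log2 -5.31 for Jdp2 to -2.72 for Bhlhe40. Prdm1 encodes BLIMP1, which silences osteoclast repressors, and Ppargc1b is a coactivator of mitochondrial genes. Spi1, which encodes PU.1 and specifies the myeloid lineage, had means of 360.0 CPM in WT BMM and 686 CPM in WT OC, against 432 and 514 CPM in null BMM and null OC, with an interaction of log2 -0.68 ± 0.18 (adjusted p = 0.0029). The positive interactions belonged to Rela, Tfe3, Jun, Myc, Nfkb1 and Tfeb, from log2 1.06 for Rela to 0.35 for Tfeb. Those of Tfeb and Myc are close to the limit: Tfeb did not pass under most alternatives (adjusted p up to 0.68, on TPM), and Myc did not without null BMM replicates 2 to 4 (adjusted p = 0.061).

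The non-canonical NF-kB subunits were already high in null BMM. Nfkb2, whose product p100 is processed to p52, gave 50.9, 55.2 and 62.5 CPM in WT BMM, 163, 169.9 and 181 CPM in WT OC, with null BMM at 143, 152 and 184 CPM and null OC at 134, 157 and 193 CPM. WT OC, null BMM and null OC overlapped, and WT BMM lay below all of them. The basal difference, null BMM over WT BMM, was log2 1.49 ± 0.077 (adjusted p = 3.9e-15), close in size to the WT response of 1.62 ± 0.078, and the null response was 0.054 ± 0.075. Relb, its partner, stood at 21.4 CPM in WT BMM and 38.9 CPM in WT OC, against 65.9 and 63.1 CPM in null BMM and null OC. Junb, an AP-1 subunit, was also pre-activated, with a basal difference of log2 0.65 ± 0.090 against a WT response of 1.13 ± 0.090. Of 11 NF-kB targets and feedback genes, the basal difference was called higher in 10, against 27.1% of all genes, and lower in Cd83 alone. Nfkbie and Birc3 were pre-activated, with basal differences of log2 1.66 and 1.59. Traf1, an adaptor of TNF receptors, was lost, at 11.0 CPM in WT BMM and 91.4 CPM in WT OC, against 27.6 and 31.02 CPM in null BMM and null OC. Nfkbia, which encodes the inhibitor IkBα, rose in WT and fell in null cells: it gave 90.7, 94.6 and 103 CPM in WT BMM, 558, 615 and 653 CPM in WT OC, with null BMM at 215, 280.3 and 331 CPM and null OC at 188, 211 and 239 CPM. The 2 null groups overlapped, and null BMM replicates 2, 3 and 4 gave the 3 highest values of that group (331, 324 and 297 CPM). Its null response was log2 -0.40 ± 0.083 (adjusted p = 0.0045) with all libraries and -0.18 (adjusted p = 0.22) without those 3, while the interaction was -3.06 ± 0.12 (adjusted p = 1.1e-17).

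Of 13 repressors of osteoclast formation, the interaction was positive in 7, against 25.3% of all genes, not called in 5 and negative in Nr4a1 alone (log2 -1.24 ± 0.40, adjusted p = 0.011 by edgeR and 0.055 by limma-voom). Irf8 gave 262, 265 and 278 CPM in WT BMM, 30.7, 33.1 and 34.1 CPM in WT OC, with null BMM at 159, 198 and 206 CPM and null OC at 176, 202 and 241 CPM. WT OC lay below every other library, and the null groups overlapped. Its WT response was log2 -3.04 ± 0.079, its null response 0.12 ± 0.073 (adjusted p = 0.26) and its interaction 3.17 ± 0.11 (adjusted p = 4.4e-19). Ikzf1 was lost (interaction log2 1.10 ± 0.17) and Bcl6 blunted (0.68 ± 0.16). Id1, an inhibitor of helix-loop-helix factors, was null-only. This class holds genes with a called interaction and a called null response of at least log2 1. Their WT response was not called or was under log2 1, so a null-only gene can still respond in WT. The null response of Id1 was log2 1.16 ± 0.32 (adjusted p = 0.023 by edgeR). Null OC replicates 3 and 6 gave 41.1 and 31.2 CPM for Id1, against 8.04 to 16.4 CPM in the other 4. Without null BMM replicates 2 to 4 the adjusted p of that response was 0.16.

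**Figure D3:**
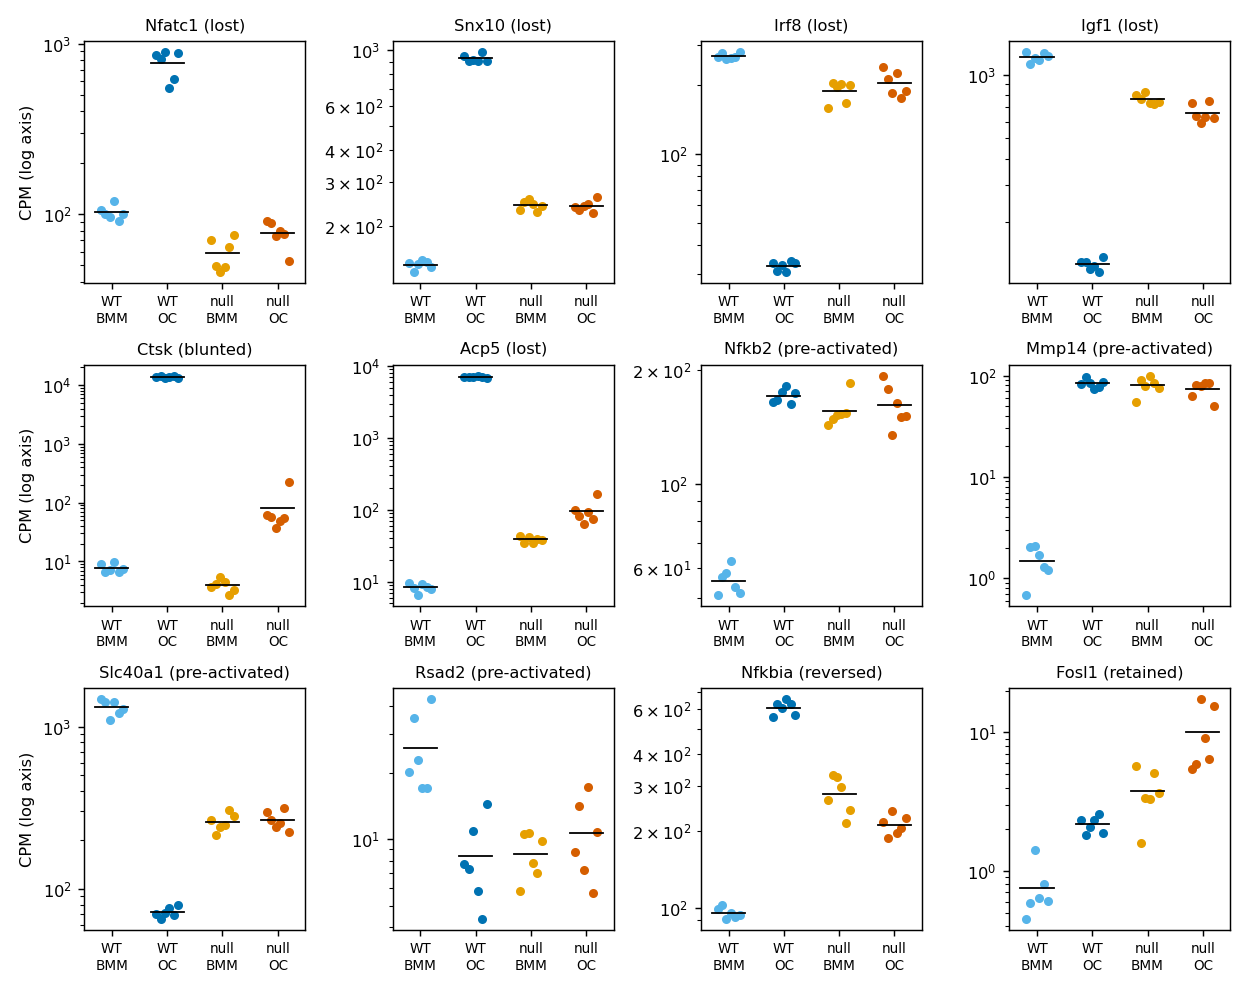
CPM on a log axis for 12 genes in the 6 libraries of each group, with the response class in each title; points are libraries and bars are group means. In the panels of lost genes WT OC stands apart from the other 3 groups, and for Ctsk and Acp5 the highest null OC point is replicate 6.

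The effector genes of bone resorption had the largest median interaction of the 16 gene lists. Of 16 osteoclast effectors, 16 rose in WT, against 30.4% of all genes. The median was log2 5.44 in WT, and the median null response was log2 0.36. The interaction was negative in 14 and positive in 0 (edgeR; 0 also unadjusted and by DESeq2), against 26.1% and 25.3% of all genes, and the 2 exceptions were Plekhm1 (log2 0.0064 ± 0.11) and Calcr. For Calcr, at 0 counts outside WT OC, no null response could be estimated and edgeR returned an adjusted p of 1, while DESeq2 (log2 -11.68, adjusted p = 8.1e-15), limma-voom (-10.34, adjusted p = 4.4e-13) and limma on TPM (-3.97, adjusted p = 1.4e-21) called its interaction negative; the mean of WT OC was 32.5 CPM, at least 188-fold above the floor of 3 counts in null OC. In null cells 11 of the 16 rose with all libraries, against 6.78% of all genes. Without null BMM replicates 2 to 4 the number was 4, while 87 genes in all were called in either direction. A small response was thus measured whose calls depend on those libraries.

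Ctsk, the collagen-degrading protease cathepsin K (chr3:95499256-95509362, plus strand, GRCm38), gave 6.50, 7.27 and 9.93 CPM in WT BMM, 13000, 13750 and 14410 CPM in WT OC, with null BMM at 2.66, 3.92 and 5.53 CPM and null OC at 36.7, 55.6 and 222 CPM. The 4 groups did not overlap, null BMM being the lowest. Null OC replicate 6 held 222 CPM against 36.7 to 62.9 CPM in the other 5. The WT response was log2 10.79 ± 0.45 and the null response 4.34 ± 0.37 (adjusted p = 1.1e-06), or 3.72 without null OC replicate 6, and the interaction was -6.46 ± 0.52 (adjusted p = 4.2e-10). Ctsk was therefore blunted on the log2 scale, although the mean of null OC was 0.585% of that of WT OC.

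Acp5, the phosphatase TRAP used as the classical osteoclast stain, gave 6.46, 8.28 and 9.65 CPM in WT BMM, 6806, 7002 and 7294 CPM in WT OC, with null BMM at 34.7, 38.7 and 43.3 CPM and null OC at 64.2, 88.5 and 165 CPM. The 4 groups did not overlap, and null OC replicate 6 was again highest, at 165 CPM. Its basal difference was log2 2.22 ± 0.16, its null response 1.31 ± 0.15 (adjusted p = 2.4e-05) and its interaction -8.41 ± 0.23 (adjusted p = 1.3e-19). An antisense gene, 6530413G14Rik, overlaps Acp5, and whether counting used strand is not given in the sources used here; reads of such pairs could then not be told apart, which also holds for Fam198b, Uck2, Sash1, Fcgr2b, Fosl1, Tmem63a, Bdh1, Slc4a2, Itgav, Jun, Junb, Jdp2, Bhlhe40, Nfkb2, Csf1r, Adam8, Gas6, Irf7, Bcl6, Cd9, Plekhm1, Pfkp, H2-DMa and Cox5a.

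Rufy4, a RUN and FYVE domain protein, is an extreme case: it had at most 3 counts in every WT BMM and null BMM library and a mean of 151 CPM in WT OC, at least 963-fold above that floor. Null OC libraries held 0.0754 to 1.36 CPM. Its interaction (log2 -9.49 ± 2.83, adjusted p = 0.0079) had an adjusted p of 0.054 without null BMM replicate 1 and of 0.053 without null BMM replicate 5. Its 300 bases around the annotated start (RefSeq, GRCm38.p6, chr1:74125291-74125590, plus strand) are shown because they carry 1 match to the AP-1 letters TGANTCA, in capitals, whose first base lies at -41 from the start.
Rufy4: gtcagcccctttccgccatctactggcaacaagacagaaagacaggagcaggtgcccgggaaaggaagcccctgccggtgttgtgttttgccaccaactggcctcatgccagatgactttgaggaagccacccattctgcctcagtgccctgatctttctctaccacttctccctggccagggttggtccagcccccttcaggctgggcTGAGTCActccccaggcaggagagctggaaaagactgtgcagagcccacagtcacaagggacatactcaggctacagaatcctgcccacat

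The ruffled border and acid export genes described here were mostly lost. Snx10, a sorting nexin required for the ruffled border (chr6:51523901-51590679, plus strand), had the smallest interaction p of all rising lost genes and gave 131, 141 and 146 CPM in WT BMM, 905, 910.0 and 979 CPM in WT OC, with null BMM at 228, 242 and 256 CPM and null OC at 226, 239 and 259.5 CPM. WT OC lay apart from the null groups, which overlapped almost fully. The WT response was log2 2.72 ± 0.049, the null response -0.0077 ± 0.046 (adjusted p = 0.94) and the interaction -2.73 ± 0.066 (adjusted p = 6.3e-22). Among all rising lost genes Bdh1, a ketone body dehydrogenase, followed with an interaction of log2 -5.03 ± 0.15 from 6.44 CPM in WT BMM and 281 CPM in WT OC, against 14.3 and 19.2 CPM in null BMM and null OC. Slc4a2, the chloride-bicarbonate exchanger of osteoclasts, stood at 50.1 CPM in WT BMM and 579.7 CPM in WT OC, against 37.0 and 49.7 CPM in null BMM and null OC. Car2, carbonic anhydrase II, which supplies the protons, rose at least 1482-fold over the floor in WT to 233 CPM and was 0.277 and 0.599 CPM in null cells. Of 18 subunits and accessory proteins of the V-ATPase, the pump that acidifies the resorption pit, 16 rose in WT and the interaction was negative in 15 and positive in 2, against 30.4%, 26.1% and 25.3% of all genes; 9 were lost, 8 had WT responses under log2 1 and 1 was reversed. The medians were log2 1.03 in WT and 0.055 in null cells. Tcirg1, the a3 subunit of the osteoclast pump, rose in WT from 519.5 ± 46.8 to 1225 ± 47.6 CPM (SD, n = 6) and in null cells from 342 ± 15.4 to 395 ± 39.6 CPM (adjusted p = 0.031). Atp6v0a1, the a1 subunit, went the opposite way, falling in WT from 478 to 144 CPM and rising in null cells from 223 to 299 CPM (interaction log2 2.15 ± 0.13, adjusted p = 6.3e-14). Without null BMM replicates 2 to 4 the null responses of Tcirg1 and Atp6v0a1 did not pass (adjusted p = 0.14 and 0.19).

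Fusion genes were split. Of 10, the interaction was negative in 6, against 26.1% of all genes, and positive in Adam8. Dcstamp and Ocstamp, the membrane proteins needed for fusion, rose in WT from 0.920 to 374 CPM and from 0.627 to 358 CPM, and in null cells from 0.163 to 2.24 CPM and from 0.655 to 2.91 CPM. Null OC replicate 6 carried the null OC means, which were 1.31 and 1.21 CPM without it. Without null BMM replicates 2 to 4 these null responses did not pass (adjusted p = 0.065 and 0.25). Their interactions were log2 -4.99 ± 1.30 (adjusted p = 0.0026) and -7.12 ± 1.03 (adjusted p = 4.5e-06). Atp6v0d2, a pump subunit with a part in fusion, had a null response of log2 -0.0026 ± 0.094 against a WT response of 4.05 ± 0.10. Adam8, a membrane protease, fell in WT (log2 -1.47 ± 0.081) and rose in null cells (0.41 ± 0.079, adjusted p = 0.0028; 0.28, adjusted p = 0.11, without null BMM replicates 2 to 4). Cd9, Cd47 and Sbno2 had interactions that did not pass the threshold with edgeR and all libraries. Sbno2 passed in 7 of 38 alternatives, among them the fit without null BMM replicates 2 to 4 (log2 -0.34, adjusted p = 0.0084), Cd47 by limma-voom and without null OC replicates 3 and 6 (0.20, adjusted p = 0.022), and Cd9 with scaling by library totals (-0.23, adjusted p = 0.035). Among 19 podosome and integrin genes, 10 interactions were negative and 6 positive, against 26.1% and 25.3% of all genes, so the positive share is near that of all genes. Itgb3 and Itgav, the 2 chains of the vitronectin receptor of osteoclasts, were both lost, with interactions of log2 -4.07 ± 0.19 and -2.16 ± 0.16, and Itgb5, the beta chain of the macrophage form, was lost in the falling direction (1.18 ± 0.18).

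Pre-activated effector genes were higher in null BMM than in WT BMM by definition, and the 2 of the 16 effectors in this class were metalloproteases. Mmp14, a membrane-bound collagenase, gave 0.677, 1.48 and 2.08 CPM in WT BMM, 73.4, 84.2 and 97.0 CPM in WT OC, with null BMM at 54.3, 81.7 and 99.3 CPM and null OC at 50.5, 79.6 and 84.8 CPM. WT OC and both null groups overlapped and WT BMM lay below them. The basal difference was log2 5.76 ± 0.19 and the WT response 5.82 ± 0.19, so null BMM, kept without RANK-L, had 95.8% of the WT change in CPM. Mmp9, a secreted gelatinase (chr2:164940780-164955850, plus strand), gave 0.0949, 0.328 and 0.693 CPM in WT BMM, 6064, 6724 and 7859 CPM in WT OC, with null BMM at 157, 184 and 227 CPM and null OC at 202, 259 and 321 CPM. It fell in the same class with 63.7% of the WT response on the log2 scale, but null BMM held only 2.72% of the WT change in CPM. The scale matters for such genes: with the limit set on the change in CPM, 634 genes were pre-activated and 1556 lost. Sdc1, the proteoglycan syndecan-1, and Akr1c18, a steroid dehydrogenase, completed the 3 rising pre-activated genes with the smallest p, with interactions of log2 -4.96 ± 0.15 and -11.80 ± 0.35, the second against a WT BMM group at the floor. Over the 305 rising genes of the class, the median basal difference was log2 1.97 against a median WT response of 1.90, and the median gene had 84.4% of the WT response on the log2 scale and 73.5% in CPM.

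Genes of oxidative phosphorylation, which makes most of the ATP of an osteoclast, had negative interactions throughout. Each of 21 genes of oxidative phosphorylation rose in WT and had a negative interaction with all libraries, against 30.4% and 26.1% of all genes. All 21 interactions were also negative under each of the 3 sets of left-out libraries. The same held under the 4 other scalings or tools listed for the gene groups. Medians were log2 1.12 in WT, -0.083 in null cells and -1.27 for the interaction. By class 13 were lost, Cox5a was reversed and the other 7 had WT responses under log2 1. Cyc1, a subunit of complex III, gave 85.5, 90.8 and 102 CPM in WT BMM, 399, 416 and 436 CPM in WT OC, with null BMM at 124, 132 and 152 CPM and null OC at 120.5, 144 and 171 CPM. WT OC lay above all other libraries and the null groups overlapped. Its interaction was log2 -2.09 ± 0.11 (adjusted p = 3.0e-15), and that of Sdha, a subunit of complex II, -1.34 ± 0.077 (adjusted p = 3.7e-14). Of 18 glycolysis genes, 10 interactions were negative and 2 positive (26.1% and 25.3% of all genes), with a median of log2 -0.38. In null cells 6 of the 18 rose with all libraries, against 6.78% of all genes, and 1 without null BMM replicates 2 to 4. Pfkp, a phosphofructokinase, rose by log2 0.66 ± 0.086 in WT and 0.40 ± 0.086 in null cells, and the difference of -0.26 ± 0.12 did not pass the threshold with edgeR (adjusted p = 0.074) but passed in 10 of 38 alternatives, among them scaling by library totals (-0.42, adjusted p = 0.0044) and limma-voom (-0.37, adjusted p = 0.0056). Of 20 cholesterol synthesis genes, 13 interactions were negative and 2 positive, against the same shares.

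Most cell cycle genes rose in both genotypes with all libraries, though not in null cells without null BMM replicates 2 to 4. Of 16, the WT response was called higher in 14 and the null response in 11, with medians of log2 0.54 and 0.32, and the interaction was negative in 6 and positive in 0 (edgeR; 0 also unadjusted and by DESeq2). Over all genes these shares were 30.4% and 6.78% for the higher responses and 26.1% for negative interactions. Mcm2, a subunit of the replicative helicase, responded by log2 0.44 ± 0.14 in WT and 0.46 ± 0.13 in null cells, and the difference of 0.014 ± 0.19 did not pass the threshold (adjusted p = 0.96). Without those 3 libraries 0 of the 16 were called in null cells by edgeR (7 at an unadjusted p under 0.05), and 8 had a negative interaction.

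**Figure D4:**
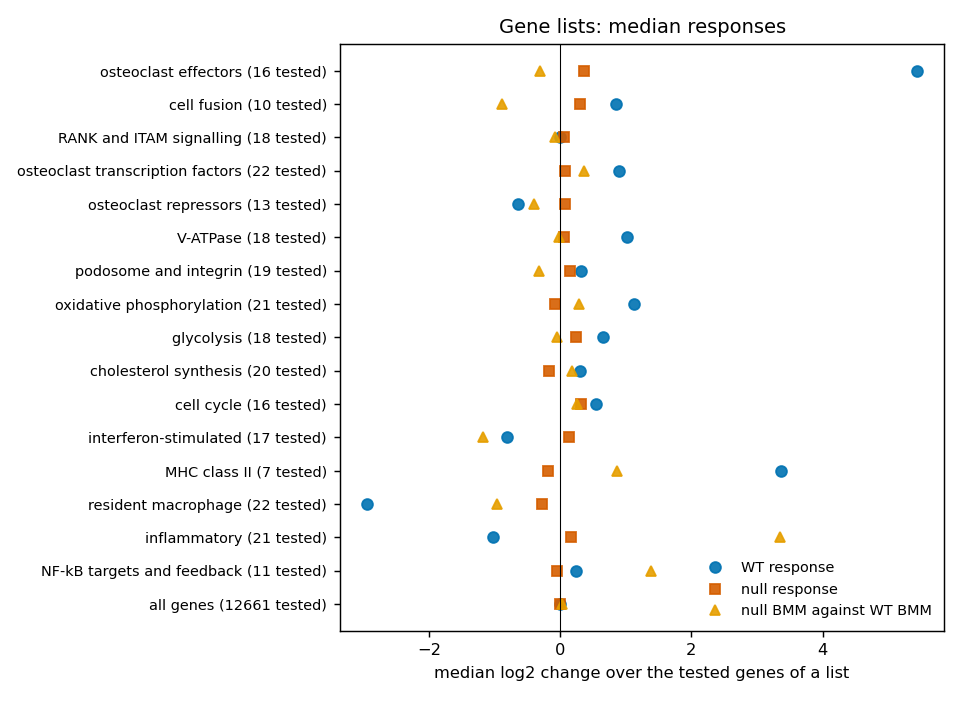
Median log2 change over the tested genes of each list for the WT response (circles), the null response (squares) and the difference of null BMM from WT BMM (triangles), with all genes tested in the last line. The squares lie between log2 -0.28 and 0.36 for every list, while the circles run from log2 -2.94 for resident macrophage genes to 5.44 for osteoclast effectors.

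Most genes of the resident macrophage state fell in WT and fell less, or were not called, in null cells. Of 22 tested, 20 fell in WT, against 30.1% of all genes, with a median of log2 -2.94 over the list. The interaction was positive in 20, against 25.3% of all genes. In null cells 8 fell with all libraries, against 6.07% of all genes, and 1 without null BMM replicates 2 to 4. By class 14 were lost and 6 pre-activated, the lost genes including Lyve1, which rose in WT. Igf1, a growth factor made by macrophages, gave 1129, 1215 and 1277 CPM in WT BMM, 116, 127 and 138 CPM in WT OC, with null BMM at 728, 752 and 829 CPM and null OC at 588, 635 and 751 CPM. The null groups overlapped and lay between the WT groups. Its interaction was log2 3.05 ± 0.086 (adjusted p = 2.1e-20). C1qa, C1qb and C1qc, the chains of complement C1q, were lost with interactions of log2 2.18, 2.26 and 2.22. Mrc1 and Gas6, the mannose receptor and a ligand for the uptake of dying cells, were pre-activated, falling in WT from 1201 to 151 CPM and from 2670 to 362 CPM, and already at 242 and 501 CPM in null BMM. Adgre1, which encodes F4/80, was 1873 CPM in WT BMM and 976 CPM in WT OC, against 7425 and 6667 CPM in null BMM and null OC. The basal difference was therefore not uniform: 18 of the 22 were lower in null BMM and 3 higher (Adgre1, Pf4 and Vsig4). Over all genes these shares were 24.8% and 27.1%. Lyve1 had the negative interaction (log2 -4.64 ± 1.94, adjusted p = 0.048), which did not pass under many alternatives (adjusted p up to 0.83, without null BMM replicate 1); it had at most 3 counts in every BMM library and a mean of 1.01 CPM in WT OC.

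Other falling genes followed the same classes. Nrp1, a co-receptor of semaphorins and VEGF, was lost at 847 CPM in WT BMM and 112 CPM in WT OC, against 347 and 367 CPM in null BMM and null OC (interaction log2 3.00 ± 0.085, adjusted p = 2.1e-20). Slc40a1, the iron exporter ferroportin, was pre-activated and gave 1104, 1346 and 1471 CPM in WT BMM, 65.5, 70.8 and 80.0 CPM in WT OC, with null BMM at 215, 256 and 305 CPM and null OC at 223, 260.4 and 315 CPM. The null groups overlapped each other and neither WT group. Fcgr2b, the inhibitory Fc receptor, and Dusp6, a phosphatase of ERK, were pre-activated in the same way, with basal differences of log2 -2.78 ± 0.081 and -1.36 ± 0.070 against WT responses of -3.90 ± 0.086 and -2.39 ± 0.073. Over the 296 falling genes of the class, the median gene had 74.9% of the WT response in null BMM, without RANK-L, on the log2 scale.

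Interferon-stimulated genes fell in WT and were already low in null BMM. Both comparisons are made against the same WT BMM libraries, so they are not separate evidence. Of 17, 13 fell in WT against 30.1% of all genes, and the basal difference was lower in 16 against 24.8% of all genes. The null response was called in 0 by edgeR (2 at an unadjusted p under 0.05), against 12.9% of all genes, and in 0 by DESeq2. The interaction was positive in 11, against 25.3% of all genes, in 10 without null BMM replicates 2 to 4 and in 8 with scaling by library totals. Rsad2, the interferon-induced antiviral enzyme viperin, gave 17.0, 21.5 and 43.0 CPM in WT BMM, 4.36, 7.53 and 14.4 CPM in WT OC, with null BMM at 5.84, 8.78 and 10.70 CPM and null OC at 5.73, 9.75 and 17.2 CPM. All WT BMM libraries lay above WT OC and null BMM, and 1 null OC library reached the lowest WT BMM value. Its basal difference was log2 -1.59 ± 0.29, its WT response -1.62 ± 0.29 and its interaction 1.94 ± 0.42 (adjusted p = 0.00039). Irf7, Rtp4 (which shares 12.5% of its words with other genes) and Xaf1 had lower levels in null BMM (log2 -2.19, -2.63 and -0.94) and interactions that did not pass the threshold. That of Xaf1 passed with the length offset (log2 0.73, adjusted p = 0.022) and on TPM (0.67, adjusted p = 0.023), and that of Rtp4 without null BMM replicate 3 (adjusted p = 0.024) or null OC replicate 5 (adjusted p = 0.039). Stat2, a subunit of the interferon-activated factor, was lost instead, at 64.2 CPM in WT BMM and 17.9 CPM in WT OC, against 49.6 and 54.5 CPM in null BMM and null OC. Of 7 MHC class II genes, 5 rose in WT, against 30.4% of all genes, and H2-DMa and H2-DMb1 fell. H2-DMb1 shares 31.4% of its sequence words of 31 bases with other genes and is uncertain. Cd74, the invariant chain, went from 21.8 to 370.5 CPM in WT while null BMM and null OC had 45.6 and 47.5 CPM, and the 5 had negative interactions, against 26.1% of all genes, with a median over the 7 of log2 -3.70.

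Inflammatory genes were mostly higher in null BMM than in WT BMM, both kept without RANK-L. Of 21, 18 were higher in null BMM, with a median basal difference of log2 3.35 over the list, and the interaction was positive in 12; over all genes 27.1% were higher and 25.3% had a positive interaction. Marco, a scavenger receptor for bacteria, gave 13.9, 14.97 and 21.2 CPM in WT BMM, 2.91, 3.55 and 4.25 CPM in WT OC, with null BMM at 522, 582 and 654 CPM and null OC at 375, 388 and 422 CPM. Each group lay apart from the other 3, and WT BMM replicate 4 was the highest of its group at 21.3 CPM. Its response was blunted, log2 -2.15 ± 0.10 in WT and -0.58 ± 0.079 in null cells, against a basal difference of 5.22 ± 0.10. Acod1, the itaconate-producing enzyme, stood at 1.57 CPM in WT BMM and 0.896 CPM in WT OC, against 129 and 138 CPM in null BMM and null OC. Ccl3 and Ccl4, chemokines that fell in WT, had null responses of log2 0.31 ± 0.14 (adjusted p = 0.12) and 0.50 ± 0.13 (adjusted p = 0.014) and interactions of 2.74 ± 0.20 and 3.21 ± 0.19. Ccl2, a monocyte chemokine, had the smallest interaction p of the null-only rising genes reaching a mean of 10 CPM. It gave 281, 357 and 416 CPM in WT BMM and 173, 210.2 and 249.3 CPM in WT OC. The WT groups did not overlap, so the class name does not mean a response in null cells alone. Null BMM stood at 175, 212 and 338 CPM and null OC at 240.5, 399.9 and 836 CPM. Null OC replicates 3 and 6 were highest for Ccl2, at 836 and 696 CPM. Its null response of log2 1.04 ± 0.23 had an adjusted p of 0.0073 with all libraries and 0.17 without null BMM replicates 2 to 4.

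Blunted genes had an estimated null response of 25% or more of that in WT, which is part of their rule. That null response was itself called in 103 of the 170. Without null BMM replicates 2 to 4, 120 genes were blunted, while 87 of all genes tested had a called null response. Fam198b was 39.6 CPM in WT BMM and 144 CPM in WT OC, against 12.8 and 18.6 CPM in null BMM and null OC, with a WT response of log2 1.86 ± 0.084 and a null response of 0.53 ± 0.088 (adjusted p = 0.00091). Uck2, a uridine-cytidine kinase, rose in both genotypes (log2 4.21 ± 0.24 and 1.09 ± 0.23, the latter with an adjusted p of 0.073 without null BMM replicates 2 to 4), and null OC replicate 6 was again apart, at 13.9 CPM against 5.17 to 7.30 CPM. Sash1 fell in both (log2 -1.74 ± 0.12 and -0.48 ± 0.11), the latter -0.21 (adjusted p = 0.34) without null BMM replicates 2 to 4. Ctla2a met the rule too but shares 37.3% of its sequence words of 31 bases with other genes, so its counts are uncertain.

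The 25 retained responses were few and mostly of weakly expressed genes, 12 of them reaching a mean of 10 CPM in some group. Cad, the enzyme that starts pyrimidine synthesis, gave 8.52, 12.2 and 16.4 CPM in WT BMM, 25.9, 29.2 and 33.8 CPM in WT OC, with null BMM at 4.57, 7.17 and 8.49 CPM and null OC at 8.67, 12.2 and 17.5 CPM. OC and BMM libraries overlapped in null cells and did not in WT. Its responses were log2 1.23 ± 0.16 in WT and 0.87 ± 0.17 in null cells, with a difference of -0.36 ± 0.23 (adjusted p = 0.21). Fosl1, the AP-1 subunit Fra-1, rose by log2 1.53 ± 0.34 in WT and 1.39 ± 0.29 in null cells (adjusted p = 0.0043) from a level that was log2 2.34 ± 0.34 higher in null BMM. Dhrs13 rose by log2 1.12 ± 0.23 and 1.00 ± 0.23, and an antisense gene overlaps it. Aif1, which encodes the macrophage protein Iba1, fell by 1.12 ± 0.14 on the log2 scale in WT and by 0.96 ± 0.14 in null cells. Ulk2, an autophagy kinase, had an interaction of log2 0.47 ± 0.20 by edgeR (adjusted p = 0.052). It passed the threshold in 13 of 38 alternatives, among them DESeq2 (adjusted p = 0.045) and limma-voom (log2 0.58, adjusted p = 0.0060). Without null BMM replicates 2 to 4 it was log2 0.80 (edgeR, adjusted p = 0.0012). The interaction of Aif1 passed in 1 of 38, without those libraries (0.50, adjusted p = 0.021). That of Cad also passed in 1, by limma on TPM (-0.51, adjusted p = 0.026). Without null BMM replicates 2 to 4, 3 genes were retained, so the class as a whole rests on those libraries; an interaction that was not called does not show equal responses.

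Reversed responses rest on the same libraries, with 105 genes in all and 8 without null BMM replicates 2 to 4. Tsc22d1, a leucine zipper protein, rose in WT by log2 3.26 ± 0.085 and changed by -0.32 ± 0.084 (adjusted p = 0.016) in null cells. Pmp22, a membrane protein, and Tmem63a, an ion channel, fell in WT by 1.60 and 2.46 on the log2 scale and rose in null cells by 0.21 and 0.45. The null parts of these 3 did not pass the threshold without null BMM replicates 2 to 4, with adjusted p from 0.073 to 0.13, while their interactions with all libraries had adjusted p of at most 1.7e-16. Gm29216, the only 1 of 10 null-only falling genes that reached a mean of 10 CPM, shares 97.2% of its sequence words with other genes and is uncertain.

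Promoters of the classes were searched for short motifs in the RefSeq windows of 250 bases before to 50 after each start (9688 of 12661 genes matched, 12387 windows, either strand). AP-1 letters TGANTCA were found in 5.33% of windows of all genes tested and 7.81% of all windows in the table. By windows of rising and falling genes, the shares were 8.34% and 6.61% for lost and 8.95% and 10.2% for pre-activated. They were 8.25% and 3.51% for blunted and 4.76% and 10.7% for reversed. These lay on both sides of the share in the whole table. Blunted falling (2 of 57 windows) and reversed rising (2 of 42 windows) were below the share of all genes tested, and the others were above it. Retained genes had 3 of 19 rising and 0 of 4 falling windows. Letters of the interferon-stimulated response element, GAAA repeated after 2 bases of any kind, were found in 3.29% of windows of all genes tested and 3.44% of the whole table. The share was 1.67% of windows of rising and 4.49% of falling lost genes. It was 1.92% of windows of rising and 8.73% of falling pre-activated genes (29 of 332 windows). Blunted genes had it in 2.06% of rising and 7.02% of falling windows (4 of 57), and reversed genes in 2.38% and 4.0%. Retained genes had it in 1 of 19 rising and 1 of 4 falling windows. Letters of an NF-kB site were GGGA and TTTCC with 1 base of any kind between them. These were found in 0.501% of windows of all genes tested and 0.411% of the whole table. Among pre-activated genes they were found in 5 of 313 rising and 3 of 332 falling windows. Of those 5 windows, 2 were overlapping windows of Nfkb2 that hold the same site, so windows are not separate sites. Lost genes had 3 of 719 rising and 6 of 847 falling windows, and blunted genes 1 of 97 and 1 of 57. Reversed genes had 1 of 42 and 0 of 75, and retained genes 0 of 19 and 0 of 4. Letters of CRE, E-box and PU.1 sites were also searched, and their shares are not reported here. These shares are descriptions, and a match is not a bound site. The windows of Nfkb2 (chr19:46305445-46305744) and Rsad2 (chr12:26456403-26456702), on the plus and minus strand of GRCm38.p6, are shown as a rising and a falling pre-activated gene, with matches in capitals: in Nfkb2 an AP-1 match at -210 and an NF-kB match at 11, and in Rsad2 a response element match at -120 and an AP-1 match at -87. RefSeq lists 2 further starts of Nfkb2, which are not shown. The window of 1 of them overlaps the window shown and holds the same NF-kB match, at -225 from its own start.
Nfkb2: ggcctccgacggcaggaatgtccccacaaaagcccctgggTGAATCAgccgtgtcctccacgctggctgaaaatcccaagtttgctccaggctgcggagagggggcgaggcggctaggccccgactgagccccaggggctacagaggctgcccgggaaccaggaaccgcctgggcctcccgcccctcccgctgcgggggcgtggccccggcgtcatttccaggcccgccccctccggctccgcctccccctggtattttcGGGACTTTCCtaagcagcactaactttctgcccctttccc
Rsad2: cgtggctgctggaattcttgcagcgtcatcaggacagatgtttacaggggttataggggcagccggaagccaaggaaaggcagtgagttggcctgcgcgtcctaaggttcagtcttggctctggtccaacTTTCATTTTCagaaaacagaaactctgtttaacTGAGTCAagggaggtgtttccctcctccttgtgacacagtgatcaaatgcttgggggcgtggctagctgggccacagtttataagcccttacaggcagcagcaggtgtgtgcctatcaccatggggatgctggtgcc

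Sums over markers of several other cell types differed between genotypes, and a few genes of each list carried them. A list of 13 neutrophil genes, of which 9 were detected in null BMM and 7 in null OC, summed to 54.7 to 72.8 CPM in WT BMM, 296 to 325 CPM in null BMM, 18.4 to 22.2 CPM in WT OC and 277 to 388 CPM in null OC, while Elane and Retnlg were at 0 in every library. Most of that sum came from Mmp8 and from Csf3r, which shares 23.05% of its sequence words with other genes. Mmp8 had means of 21.7 CPM in WT BMM, 13.2 CPM in WT OC, 213 CPM in null BMM and 259.5 CPM in null OC. S100a8 was also higher in null cells, with means of 0.162, 0.117, 10.7 and 6.88 CPM in that order. Cxcr2 was not (3.18, 4.42, 2.93 and 2.87 CPM), and S100a9 was at most 0.102 CPM in any library. The granule genes Ngp, Ltf, Camp, Mpo and Prtn3 each had means under 1 CPM. Osteoblast and stromal markers (14 genes) summed to 10.68 to 30.99 CPM in WT BMM, 70.4 to 163 CPM in null BMM, 13.6 to 16.3 CPM in WT OC and 68.0 to 337 CPM in null OC. Sp7 was at 0 in WT BMM and null OC. Col1a1 was the highest of them, with means of 15.2, 62.9, 8.11 and 84.3 CPM in the order WT BMM, null BMM, WT OC and null OC. Erythroid and megakaryocyte markers (7 genes) summed to at most 1.14 CPM in WT and 13.6 to 21.1 CPM in null libraries, with the globins Hba-a1 and Hbb-bs at 0 in all. Almost all of that came from Ppbp, with a mean of 15.4 CPM in null BMM against 0.379 CPM in WT BMM. Of 6 endothelial and adipocyte markers only Kdr was tested, and it had means of 15.2, 1.91, 6.72 and 2.66 CPM in that order of groups, while the other 5 had means under 1 CPM in each group. Lymphoid markers (10 genes) stayed at or below 4.87 CPM, mast cell and basophil markers (5 genes) at or below 1.09 CPM, and dendritic markers (7 genes) ran from 3.39 to 20.9 CPM. Their part in the responses was not tested.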

How the data were processed

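RNA was taken with a column kit that keeps small RNAs and made into libraries with a low-input kit, per the labels' protocols. The authors quantified reads with kallisto, and their processing notes also name DESeq2 and the build GRCh38; versions, annotation release and strand setting are not given in the sources used here. The transcript names are mouse, and 97.5% of the 88198 transcripts matched the mouse annotation (GRCm38) used for gene names, leaving 0.783% to 0.974% of counts per library unmatched and out of every test. Each deposited table gives estimated counts and TPM for each transcript, with its effective length, per the file headers.

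Estimated counts were summed per gene and rounded. Low genes were removed with filterByExpr, libraries were scaled by TMM, and contrasts were tested in edgeR 4.0.16 (R 4.3.3; robust quasi-likelihood, 1 mean per group, Benjamini-Hochberg over 12661 genes, called at an adjusted p under 0.05). CPM use the TMM library sizes. Totals of 14118972 to 26347581 counts put the floor of 3 counts at 0.226 to 0.12 CPM. Steps were tested on simulated data. No pair of libraries agreed within sampling noise.

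Named genes are, per class, 3 rising and 3 falling (2 in reversed and null-only) among genes reaching a mean of 10 CPM. They have the smallest interaction p, or for retained genes the smallest null response p. Members of 16 gene lists were added. Members, classes and lists were chosen with earlier results of these data known. Alternatives used RLE scaling, library totals, other filters, DESeq2 1.42.0, limma-voom and limma (3.58.1) on log2(TPM + 1), a length offset, all 36 libraries, a replicate block, other class limits and leaving libraries out. DESeq2 gave no adjusted p for Ctsk, so none is counted for it. Values of some list members are not reported here.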

Additional observations from a re-analysis of the deposited data

Results flagged for a closer look

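The response to RANK-L culture differed between genotypes, by the test of the difference itself, in 6501 of 12661 genes. Within groups of 6 libraries, 472 sets of values were checked for 1 library far from the other 5, and 25 had one; chance alone gives about 1 in 20, so the number as a whole does not stand out.

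Among those 25, null OC replicate 6 recurs. It was highest for Ctsk (222 CPM, others 36.7 to 62.9), Acp5 (165 CPM, others 64.2 to 97.7), Dcstamp (6.86 CPM, others 0.794 to 2.06), Ocstamp (11.4 CPM, others 0.600 to 1.88), Oscar (3.39 CPM, others 0.505 to 1.55) and Uck2 (13.9 CPM, others 5.17 to 7.30), and lowest for Ikzf1 (37.0 CPM, others 55.7 to 65.9). It also lay furthest towards WT OC on the line between the WT groups (0.310, others 0.2497 to 0.269). Each of these 6 high genes is one that rose in WT, and Ikzf1, an osteoclast repressor, fell in WT. The collagen gene Col1a1, a stromal marker, was also highest there (182 CPM, others 44.1 to 77.0). Even in this library Ctsk was far below the lowest WT OC library, at 13000 CPM.

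Other null OC libraries stood out once each: replicate 1 was highest for Itgb3 (15.02 CPM, others 10.2 to 11.7) and for Lyve1 (0.183 CPM, the others at 0), and replicate 3 was lowest for H2-DMa (11.8 CPM, others 18.2 to 21.9). In null BMM, replicate 6 was highest for Nfkb2 (184 CPM, others 143 to 154), Fosl2 (53.8 CPM, others 36.6 to 42.7) and Plekhm1 (108 CPM, others 81.8 to 91.3). Null BMM replicate 1 was lowest for Cd74 (38.0 CPM, others 45.8 to 48.0) and highest for Oscar (0.214 CPM, others 0 to 0.0566), which is 4 counts.

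In WT BMM, replicate 4 was highest for Marco (21.3 CPM, others 13.9 to 15.47), replicate 3 for Fosl1 (1.41 CPM, others 0.452 to 0.807) and replicate 6 for Acod1 (2.07 CPM, others 1.35 to 1.61). In WT OC, replicate 1 was highest for Mmp8 (15.43 CPM, others 12.1 to 13.3), replicate 4 for Tfe3 (111 CPM, others 92.8 to 98.6) and Cd68 (2331 CPM, others 2093 to 2153), replicate 2 for C1qb (724 CPM, others 614 to 655) and replicate 5 for Prdm1 (59.3 CPM, others 44.1 to 48.8).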

How the results depend on the processing

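The interaction was called in 6204 to 6752 genes when any 1 of the 24 libraries was left out (positive 3052 to 3329, negative 3152 to 3423), the WT response in 7349 to 7931, the basal difference in 6171 to 6874 and the genotype difference in OC in 7920 to 8323. The null response depended more on the libraries: 810 (without null BMM replicate 3) to 2143 (without null BMM replicate 1), with 840, 948 and 1046 without null BMM replicates 2 and 4 and null OC replicate 3, 87 without null BMM replicates 2 to 4 and 1013 by limma-voom. Leaving out 1 library gave 1502 to 1655 lost, 572 to 621 pre-activated, 147 to 204 blunted, 66 to 153 reversed, 16 to 42 retained, 266 to 309 unresolved and 8 to 31 null-only genes.

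Retained genes numbered 25, but 48 with all 36 libraries, 8 on TPM, 12 by limma-voom, 39 without the null replicates 6, 3 without null BMM replicates 2 to 4, 15 without null OC replicates 3 and 6, 12 at an adjusted p under 0.01, and 3 and 132 with the smallest WT response at log2 2 and 0.5. The 256 unresolved genes became 35 on TPM, 645 with no filter, 435 without null BMM replicates 2 to 4, and 79 and 657 at log2 2 and 0.5. The 20 null-only genes became 9 with DESeq2, 55 with all 36 libraries, 3 on TPM, 42 without the null replicates 6, 3 without null BMM replicates 2 to 4 and 5 at an adjusted p under 0.01. The 105 reversed genes became 205 without the null replicates 6, 8 without null BMM replicates 2 to 4, 39 at 0.01, and 33 and 259 at log2 2 and 0.5. At log2 2 and 0.5, lost genes numbered 641 and 2642, pre-activated 226 and 1160 and blunted 48 and 405. Pre-activated genes numbered 975 from 25% and 341 from 75% of the WT response, and blunted genes 638 and 8 with lost genes limited to below 10% and below 50%.

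Deviations of same-numbered libraries correlated little: over 12 pairs the correlation ran from -0.154 to 0.0620, and 5 of 24 libraries correlated best with their own number. With 6 libraries a group, these values cannot tell whether a BMM and an OC library came from the same mouse. With a replicate block over both genotypes the interaction was called in 6291 genes and the null-only class held 13; with a replicate block within genotype these were 6194 and 10, the null response was called in 985 and 15 genes were retained. Scaling by library totals moved the median of all genes by log2 0.14 for the WT response and -0.17 for the interaction, so changes there are relative to that shift. For 117 named genes under 38 other fits (4443 values), 4333 stayed on the same side of the threshold, 64 fell below it, 46 passed it, and no value past the threshold changed sign; 8 of the genes that were not called changed sign in some fits. Genes near the floor of 3 counts, such as Lyve1, Oscar and Rufy4, are limited by depth. The causes of these differences were not tested.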
